A study of Macaca mulatta with 27 samples.

Results

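KLF4, KLF5, KLF2, TFCP2L1, DPPA3, TFAP2C, TBX3 and SUSD2 are 8 genes that mark the naive state of pluripotent stem cells, 7 of them nuclear factors and 1 of them, SUSD2, a surface protein. They were taken by symbol, and 7 of the 8 are listed among the 17967 genes of the count tables. KLF2 is not listed in the count tables and is not analysed here. Naive pluripotent cells correspond to the early, preimplantation epiblast, and primed cells to the later epiblast around implantation. In mouse cells the cytokine LIF acts through STAT3 to raise KLF4 and TFCP2L1, and KLF2, KLF4 and KLF5 have overlapping parts in keeping the naive state. In human cells TFAP2C opens naive-specific enhancers, and antibodies to SUSD2 are used to sort live naive cells from primed ones.

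The study measured messenger RNA by sequencing in rhesus macaque embryonic stem cells held in primed culture or carried through protocols aimed at the naive state. There were 6 primed libraries and 3 libraries for each of 7 protocols, 27 in all. Per the study's methods, every group comes from LyonES-tGFP-(S3), a clonal line that carries tauGFP under the ubiquitous CAG promoter and a lentiviral STAT3-ERT2, a STAT3 protein that tamoxifen activates. Both transgenes are therefore in the primed cells as well, and all values describe 1 clone.

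Tamoxifen was given in TL2i and TL-CDK8i, and STAT3-ERT2 was left inactive in the other groups. TL2i joins tamoxifen with LIF and inhibitors of MEK and GSK3β. TL-CDK8i, named TL-CDK8/19i in the study, keeps tamoxifen and LIF and puts CNIO-47799, an inhibitor of CDK8 and CDK19, in place of those inhibitors. The t2iLGöY mixture holds titrated inhibitors of MEK and GSK3, LIF, Gö6983 and Y-27632, and LCDM (EPS) holds LIF, CHIR99021, dimethindene maleate and minocycline. The 4i/L/b mixture pairs several inhibitors with LIF and basic FGF. The full mixtures of E-NHSM and NHSM-v are not given in the sources used here.

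Total counts per library ran from 7111886 to 20760914, with a median of 12201171. Primed libraries had 7111886 to 15183387 counts, E-NHSM 17555947 to 20760914, NHSM-v 9504626 to 12201171 and 4i/L/b 8375416 to 10610790. TL2i libraries had 13359671 to 19482749 counts, t2iLGöY 12827393 to 13849980, LCDM (EPS) 16799803 to 20046414 and TL-CDK8i 8929940 to 11034150. Levels are given as CPM, the usual scaling of a count by the total of its library, which are not divided by gene length, so that levels can be compared between groups for a gene but not between genes. A group was taken as too low to quantify when each of its libraries had 3 counts or fewer. Those 3 counts correspond to 0.145 to 0.422 CPM depending on the library, and this floor covers counting error only. Reads of mouse feeder cells and reads shared with pseudogenes, as for DPPA3, or among the KLF genes cannot be examined from count tables, and their part in the levels below is not known.

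The 6 primed libraries carry the letters J (3 libraries) and K (3 libraries) in the table, and the labels say nothing of these letters. The labels do name the primed samples in different ways, and which letter goes with which name is not known. The J and K sets stood apart: the chi-square per gene between a J and a K library was 18.9 to 29.8, against 9.13 to 16.9 between J libraries and 10.9 to 15.8 between K libraries. Comparisons of the naive-state genes named above with all 6 primed libraries are therefore given with J alone and K alone wherever these change a call. Comparisons of other genes are given with all 6 primed libraries only. The labels do not say whether libraries of a group come from separate cultures, so the p-values measure the spread between these libraries and no more.

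The labels name all 27 samples embryonic stem cells, and POU5F1 and NANOG did not bear this out in 5 of the 7 protocols. POU5F1, which encodes OCT4, had 1052 to 1275 CPM in Primed, 1371 to 1436 CPM in E-NHSM and 389 to 568 CPM in TL-CDK8i. In the other groups its highest library reached 0.410 CPM in NHSM-v, 1.60 CPM in 4i/L/b, 8.06 CPM in TL2i, 1.95 CPM in t2iLGöY and 6.25 CPM in LCDM (EPS). NANOG followed the same division: 105 to 154 CPM in Primed, 146 to 193 CPM in E-NHSM and 47.7 to 91.5 CPM in TL-CDK8i, and at most 0.565 CPM in any library of the other 5 protocols. In 4 of those 5, TL2i being the exception, NANOG was too low to quantify. Not every gene of the pluripotent list was low in these 5: SOX2 had 346 ± 9.48 CPM in LCDM (EPS) against 262 ± 49.4 CPM in Primed (not called, though higher under DESeq2), LIN28B was not called in TL2i and FOXD3 was called higher there. FOXD3 is also on the list of neural and neural crest markers. The group names below are thus names of protocols, not of a measured cell state. In bulk libraries, fewer cells of a type and less RNA per cell cannot be told apart.

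Marker lists for other cell types moved along with the protocols. The summed level of 10 pluripotent cell markers was 6691 to 7287 CPM in Primed and 7463 to 7631 CPM in E-NHSM, 1650 to 2278 CPM in TL-CDK8i, and at most 1073 CPM in a library of the other 5 protocols, the lowest being NHSM-v with 200 to 202 CPM. DNMT3B gave the largest part of the sum in Primed, E-NHSM and TL-CDK8i, and SOX2 or LIN28B in the rest. Markers of neural and neural crest cells (14 genes) summed to 47.2 to 68.8 CPM in Primed and 52.1 to 63.7 CPM in E-NHSM. Their sums were 3130 to 3231 CPM in t2iLGöY, with TUBB3 as the largest part, and 3273 to 3547 CPM in LCDM (EPS), with DCX as the largest part. NHSM-v reached 1119 to 1174 CPM on that list, TL2i 727 to 913 CPM, 4i/L/b 669 to 725 CPM and TL-CDK8i 373 to 476 CPM.

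Fibroblast and mesenchyme markers (10 genes) gave another order. They summed to 11532 to 14916 CPM in 4i/L/b, 8289 to 10604 CPM in TL-CDK8i and 7491 to 8117 CPM in NHSM-v, against 1107 to 2478 CPM in Primed and 468 to 509 CPM in E-NHSM. TL2i had 3116 to 6076 CPM, t2iLGöY 3748 to 4406 CPM and LCDM (EPS) 833 to 1087 CPM. COL1A1 gave the largest part of the sum in every group except E-NHSM, where it was COL1A2. LUM and DCN, markers of fibroblasts proper, were too low to quantify in Primed, E-NHSM and t2iLGöY. Single markers did not all follow the sums. Against Primed, t2iLGöY had 3 markers called higher and 2 lower (COL1A2 and THY1), and TL2i 7 higher and 2 lower (PRRX1 and THY1). In 4i/L/b 7 were higher and 1 lower (THY1), a call lost under DESeq2. Of the 11 trophoblast and amnion markers in the tables, GABRP gave the largest part of the sum in TL2i (88.2 to 144 CPM). KRT7 did so in TL-CDK8i (183 to 247 CPM) and VTCN1 in Primed (102 to 146 CPM), while CGA was too low to quantify in all 3. The mean of VTCN1 alone was 113 CPM in Primed, so similar sums hide different genes. Against Primed, GATA3 (not under DESeq2), CDX2, HAND1 and GABRP were called higher in TL2i and VTCN1 lower. In TL-CDK8i HAND1, KRT7 and GABRP were called higher, GATA2 under DESeq2 only, and VTCN1 lower. The remaining markers were not called or not tested in either protocol. Mesoderm and endoderm markers (10 genes) summed to 24.7 to 47.2 CPM in Primed, 55.5 to 93.6 CPM in TL2i with SOX17 as the largest part, and 69.9 to 132 CPM in TL-CDK8i with EOMES as the largest part.

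**Figure D1:**
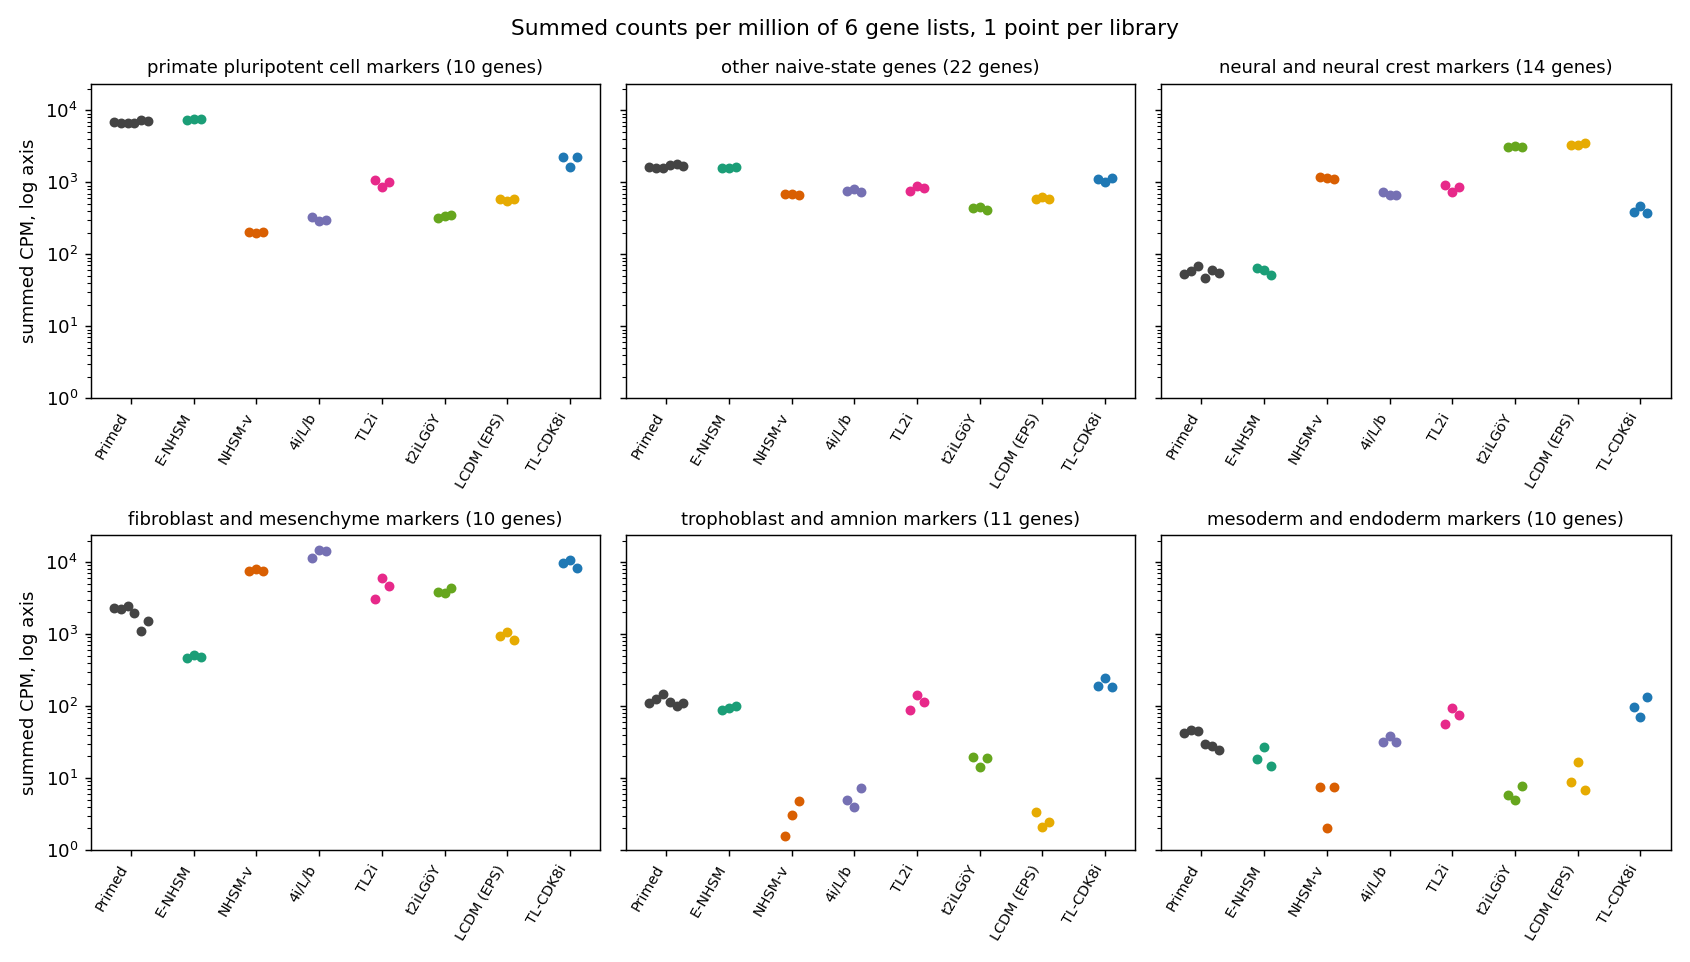
Summed CPM of 6 gene lists on a log axis, with 1 point per library and libraries grouped by protocol. Primed and E-NHSM libraries sit together on the pluripotent list (6691 to 7631 CPM), while t2iLGöY and LCDM (EPS) are the highest on the neural list and 4i/L/b and TL-CDK8i the highest on the fibroblast list.

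Of the 7 members listed, 5 had at least 1 library at or under 3 counts and were read with that in mind. KLF5 and TFAP2C were above 10 counts in all 27 libraries, and SUSD2 was under 10 counts in 1 library and KLF4 in 6. TBX3 was under 10 counts in 14 libraries, TFCP2L1 in 19 and DPPA3 in 20, 11 of them at 0. By the 3-count rule a whole group was too low to quantify only for DPPA3, in t2iLGöY and in LCDM (EPS). For genes with mean counts of 2 to 10 in a group, the median ratio of variance to mean ran from 1.86 to 9.75 across groups, so values this low spread more widely than counting error alone.

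**Figure D2:**
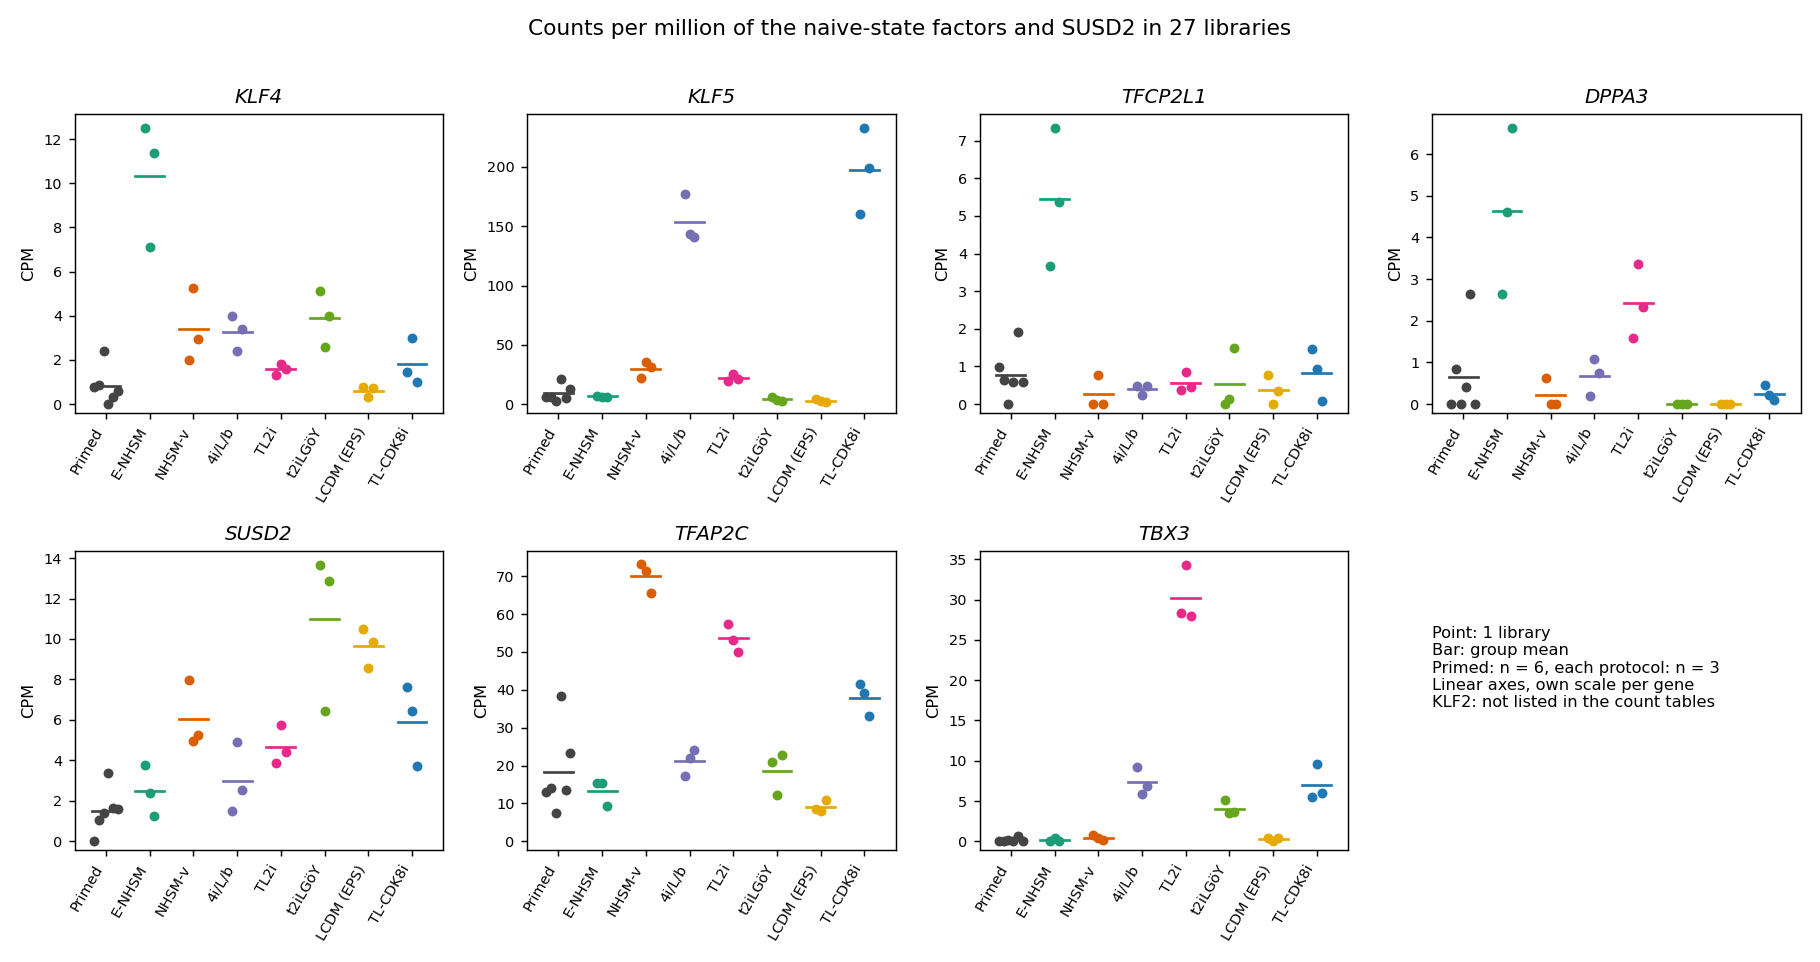
CPM of the 7 listed members on linear axes with a scale of their own for each gene, with 1 point per library (6 Primed, 3 per protocol) and a bar at the group mean. Each gene has its own order of protocols: E-NHSM leads for KLF4, TFCP2L1 and DPPA3, TL-CDK8i for KLF5, t2iLGöY for SUSD2, NHSM-v for TFAP2C and TL2i for TBX3.

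The 6 primed libraries served as the reference for every protocol, by the edgeR quasi-likelihood test over all genes that passed the count filter, and a gene was called at an adjusted p under 0.05. The 7 comparisons share the same primed libraries. Over 49 pairs of a member and a protocol, 36 could be tested, 15 were called higher, 2 were called lower and 19 were not called, and 13 did not pass the filter. These counts describe the members and support nothing about them as a set, because a gene passed the filter partly through the group in which it was high.

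The calls by protocol are best read beside the share of all tested genes called the same way. In E-NHSM, 2 of the 6 members tested were higher and 0 lower, where 11.1% of all tested genes were higher and 15.1% lower. NHSM-v had 3 of 4 higher and 0 lower (28.0% and 30.6% of all genes), and 4i/L/b had 2 of 5 higher and 0 lower (26.6% and 29.0%). TL2i had 2 of 7 higher and 0 lower, against 25.6% and 25.2% of all genes, a share near that background. In t2iLGöY the count was 2 of 6 higher and 0 lower (27.1% and 27.2%), also near it. LCDM (EPS) was the protocol with lower members, 1 of 3 higher and 2 of 3 lower (28.2% and 28.9%), and TL-CDK8i had 3 of 5 higher and 0 lower (22.3% and 23.8%). With so few members in each comparison, no protocol is set apart by these counts.

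**Figure D3:**
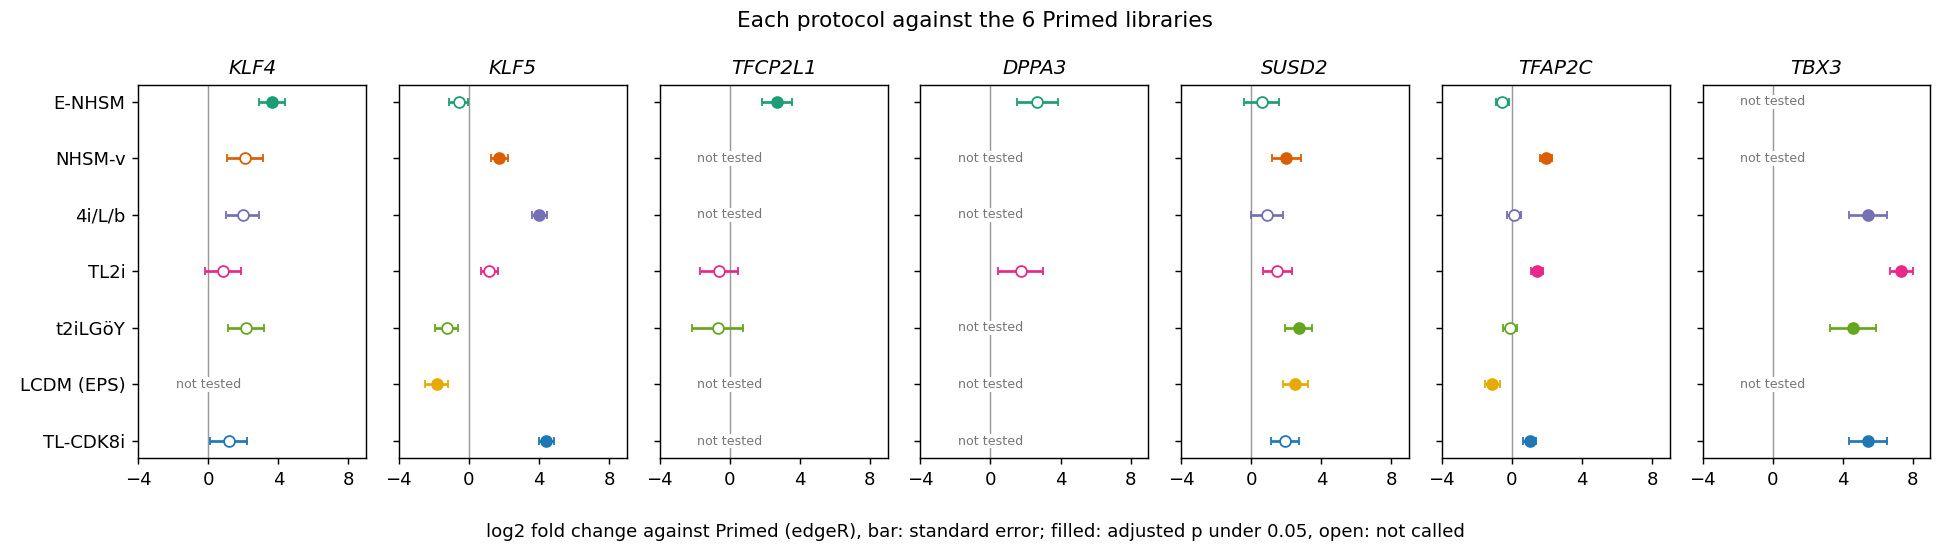
Log2 fold change of each member in each protocol against the 6 Primed libraries (edgeR), with the standard error as a bar; filled points have an adjusted p under 0.05 and open points do not. KLF5, TBX3 and KLF4 show the widest differences (4.41 for KLF5 in TL-CDK8i, 7.35 for TBX3 in TL2i and 3.64 for KLF4 in E-NHSM), and pairs that did not pass the count filter are marked as not tested.

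KLF4 encodes a zinc-finger activator that is among the original reprogramming factors and responds to STAT3 in mouse cells. In Primed (n = 6) it had 0 CPM in the lowest library, a median of 0.680 CPM and 2.39 CPM in the highest, J3. The E-NHSM libraries had 12.5, 7.12 and 11.4 CPM. All 3 lay above every other library of the series, from 125 to 260 counts each. The t2iLGöY libraries had 5.14, 2.60 and 3.98 CPM, those of NHSM-v 2.00, 5.24 and 2.95 CPM and those of 4i/L/b 3.98, 2.39 and 3.39 CPM. These 3 protocols overlapped with each other, and their lowest libraries came close to or under the highest primed library. The values in TL-CDK8i were 1.46, 3.00 and 0.997 CPM, in TL2i 1.33, 1.83 and 1.57 CPM, and in LCDM (EPS) 0.774, 0.299 and 0.743 CPM. These last 3 all overlapped with Primed, and LCDM (EPS) had the lowest mean of all groups.

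For KLF4 the difference in E-NHSM was called, with a log2 fold change of 3.64 ± 0.74 (SE), an adjusted p of 0.0013 and 3 of 3 libraries above every primed library. Without Primed J3, whose KLF4 level was the farthest from the other 5, the log2 fold change was 4.30, and over all alternatives the adjusted p ran from 8.7e-06 to 0.016. The other tested protocols were not called: t2iLGöY (2.15 ± 1.04, adjusted p 0.096, 3 of 3 libraries above every primed library), NHSM-v (2.10 ± 1.03, 0.092, 2 of 3), 4i/L/b (1.96 ± 0.97, 0.1, 2 of 3), TL-CDK8i (1.17 ± 1.06, 0.39, 1 of 3) and TL2i (0.86 ± 1.04, 0.52, 0 of 3). LCDM (EPS) was not tested because of the count filter. The missing calls in t2iLGöY, NHSM-v and 4i/L/b depended on the primed libraries and on the test. All 3 were called higher with all 8 groups in 1 fit, and NHSM-v also under DESeq2. Without Primed J3 all 3 were called higher, with adjusted p of 0.026, 0.022 and 0.018, and with the K libraries alone the adjusted p were 0.021, 0.012 and 0.007. Over all their alternatives the adjusted p ran from 0.0046 to 0.26 in t2iLGöY, from 0.0047 to 0.33 in NHSM-v and from 0.007 to 0.25 in 4i/L/b.

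KLF5 encodes a relative of KLF4 that is expressed in the early embryo, in trophectoderm and in many epithelia. Its primed libraries ran from 2.25 CPM in J3 to 21.5 CPM in K1, with a median of 6.07 CPM. The TL-CDK8i libraries had 160, 233 and 199 CPM and those of 4i/L/b 178, 143 and 141 CPM. These groups overlapped with each other and lay far above all remaining libraries, none of which passed 35.4 CPM. NHSM-v had 22.2, 35.4 and 31.6 CPM, and TL2i 19.2, 25.7 and 20.9 CPM. NHSM-v stood just above the highest primed library, and TL2i overlapped with it. Values were 6.74, 6.27 and 6.03 CPM in E-NHSM, 6.32, 3.47 and 2.42 CPM in t2iLGöY, and 3.87, 2.39 and 1.89 CPM in LCDM (EPS). These 3 groups all overlapped with Primed, and LCDM (EPS) was the lowest.

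KLF5 was called higher than in Primed in TL-CDK8i (log2 fold change 4.41 ± 0.41, adjusted p 1e-06), 4i/L/b (4.00 ± 0.42, 2.7e-06) and also NHSM-v (1.74 ± 0.48, 0.0055), with 3 of 3 libraries above every primed library in each. It was called lower in LCDM (EPS) (-1.84 ± 0.64, adjusted p 0.024), with 3 of 3 libraries below the primed mean and 1 of 3 below every primed library. Primed K1 carried that last call: without it the log2 fold change was -1.36 and the adjusted p 0.065. With J alone these were -0.91 and 0.26, without LCDM (EPS) replicate 2 -1.73 and 0.082, and without replicate 3 -1.62 and 0.099, in a range over all alternatives from 0.00026 to 0.26. TL2i was not called (1.16 ± 0.49, adjusted p 0.062, 1 of 3 libraries above every primed library), nor were E-NHSM (-0.59 ± 0.52, 0.46, 3 of 3 below the primed mean) and t2iLGöY (-1.27 ± 0.64, 0.11, 3 of 3 below the primed mean).

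Some of these missing calls changed with the primed libraries and with the test. KLF5 in TL2i was called higher under DESeq2 (adjusted p 0.043), with at least 10 counts in every library (0.035) and with all 8 groups in 1 fit (0.0048). Without K1, KLF5 was called higher in TL2i (1.64, adjusted p 0.0046), as it was with J alone (2.07, 0.0015), and the adjusted p ran from 0.0015 to 0.19 over the alternatives. Without J3 it was called lower in t2iLGöY (-1.48, adjusted p 0.033), as with K alone (-1.83, 0.013) and with all 8 groups in 1 fit (0.0058), in a range from 0.0058 to 0.71. In E-NHSM the sign itself turned, from -1.13 (adjusted p 0.036) against K alone to 0.33 (0.71) against J alone, in a range from 0.036 to 0.91. The 2 protocols with the highest KLF5, 4i/L/b and TL-CDK8i, were also those with the highest sums of fibroblast and mesenchyme markers. NHSM-v was the next highest on both. COL1A1 gave the largest part of these sums, and the markers did not all follow this order. In TL-CDK8i against TL2i, 6 of the 10 markers were higher, 1 was lower (PDGFRB, -0.79) and 3 were not called. LUM and DCN were among those not called, and 31.5% of all tested genes were higher and 33.3% lower. The part of fibroblast or mesenchyme cells in the KLF5 level was not tested.

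TFCP2L1 encodes a CP2-type transcription factor that acts downstream of LIF and STAT3 in mouse naive cells. Primed libraries ran from 0 CPM in J3 through a median of 0.615 CPM to 1.91 CPM in K2, 29 counts. E-NHSM had 3.66, 7.35 and 5.38 CPM, or 76 to 129 counts. The 3 E-NHSM libraries lay above all others, and outside E-NHSM no library passed 1.91 CPM. TL-CDK8i had 1.46, 0.932 and 0.0906 CPM, TL2i 0.359, 0.856 and 0.449 CPM, and t2iLGöY 0, 0.144 and 1.48 CPM. In 4i/L/b the values were 0.474, 0.239 and 0.471 CPM, in LCDM (EPS) 0.774, 0 and 0.343 CPM, and in NHSM-v 0, 0.777 and 0 CPM. All groups other than E-NHSM overlapped with each other, and most of their libraries held fewer than 10 counts, so an order among them could not be read at this depth.

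The test called TFCP2L1 higher in E-NHSM (log2 fold change 2.67 ± 0.86, adjusted p 0.027), with 3 of 3 libraries above every primed library. The direction held without any 1 library, but the call did not: the adjusted p became 0.053, 0.16 and 0.096 without E-NHSM replicates 1, 2 and 3 and 0.051 with all 8 groups in 1 fit, in a range over all alternatives from 0.0033 to 0.16. TL2i (-0.63 ± 1.08, adjusted p 0.65, 2 of 3 libraries below the primed mean) and t2iLGöY (-0.68 ± 1.45, 0.72, 2 of 3) were not called. The 4 other protocols did not pass the filter.

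DPPA3, also called STELLA, encodes a maternal and germ cell factor that protects the early genome from changes in DNA methylation. Its primed libraries had 0, 8, 0, 5, 40 and 0 counts, a median of 0.205 CPM, with 2.63 CPM in K2 as the highest. The 3 E-NHSM libraries had 55, 81 and 121 counts, or 2.65, 4.61 and 6.64 CPM. TL2i had 31, 55 and 31 counts, or 1.59, 3.36 and 2.32 CPM. E-NHSM and TL2i overlapped with each other, and Primed K2 lay among the TL2i values and just under the lowest E-NHSM library. The remaining counts were 2, 9 and 8 in 4i/L/b, 4, 2 and 1 in TL-CDK8i and 6, 0 and 0 in NHSM-v. No count was found in any of the 6 libraries of t2iLGöY and LCDM (EPS), where the floor of 3 counts allows up to 0.234 and 0.179 CPM.

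DPPA3 in E-NHSM was not called (log2 fold change 2.68 ± 1.16, adjusted p 0.1), although 3 of 3 libraries lay above every primed library. This rested on Primed K2. Without K2 the log2 fold change was 4.06 and the adjusted p 0.022, with J alone 3.88 and 0.037, with K alone 2.06 and 0.11, in a range over all alternatives from 0.022 to 0.32. TL2i was not called either (1.72 ± 1.26, adjusted p 0.28, 1 of 3 libraries above every primed library). Without K2 it was 3.08 with an adjusted p of 0.055, in a range from 0.055 to 0.52. The other 5 protocols did not pass the filter, so DPPA3 is too low to compare there.

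KLF4, TFCP2L1 and DPPA3 thus had their highest means in E-NHSM, the protocol whose sum of pluripotent cell markers was nearest to Primed. Primed, with a mean sum of 6903 CPM on that list against 7528 CPM in E-NHSM, had lower means of the 3 genes. They were 0.821 CPM against 10.3 CPM for KLF4, 0.783 against 5.46 CPM for TFCP2L1 and 0.648 against 4.63 CPM for DPPA3. The part of the retained pluripotent cells in the E-NHSM levels was not tested.

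TFAP2C encodes AP-2 gamma, a factor of the naive epiblast, the trophectoderm and early germ cells. In Primed its lowest library had 7.45 CPM (J3), the median was 13.8 CPM and the highest had 38.3 CPM (K1). NHSM-v had 73.3, 71.4 and 65.6 CPM, TL2i 57.5, 53.2 and 50.1 CPM, and TL-CDK8i 41.5, 39.2 and 33.2 CPM. These 3 groups formed steps with no overlap between neighbours, and the lowest TL-CDK8i library lay under Primed K1. Below them, 4i/L/b had 17.3, 22.0 and 24.0 CPM, t2iLGöY 21, 12.3 and 22.8 CPM, and E-NHSM 15.5, 15.5 and 9.27 CPM. LCDM (EPS) had 8.45, 7.88 and 11 CPM. These 4 groups all lay within the primed range, and LCDM (EPS) was at its lower end.

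Higher TFAP2C was called in NHSM-v (log2 fold change 1.95 ± 0.35, adjusted p 0.00019) and TL2i (1.41 ± 0.36, 0.0045), each with 3 of 3 libraries above every primed library, and in TL-CDK8i (1.02 ± 0.36, 0.032), with 2 of 3. The call in TL-CDK8i was lost without any of Primed J1 (adjusted p 0.06), J2 (0.065) or K2 (0.063), without any of its own replicates (0.092, 0.095 and 0.052) and with K alone (0.57, 0.12), in a range from 0.00041 to 0.12. LCDM (EPS) was called lower (-1.14 ± 0.43, adjusted p 0.037), with 3 of 3 libraries below the primed mean and 0 of 3 below every primed library. That call was lost without Primed K1 (-0.77, 0.074) or K3 (-1.03, 0.07), without each of its own replicates (0.11, 0.12 and 0.065) and with J alone (-0.43, 0.32), in a range from 0.0011 to 0.32.

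The remaining TFAP2C comparisons turned on which primed libraries were used. E-NHSM was not called (-0.54 ± 0.39, adjusted p 0.35, 3 of 3 libraries below the primed mean), and gave -0.99 (0.016) against K alone and 0.15 (0.8) against J alone. In 4i/L/b the log2 fold change was 0.13 ± 0.39 (adjusted p 0.8, 2 of 3 libraries above the primed mean), with 0.84 (0.029) against J alone and -0.30 (0.4) against K alone. In t2iLGöY it was -0.11 ± 0.41 (adjusted p 0.85, 1 of 3 libraries below the primed mean), with 0.57 (0.22) against J alone. Over the alternatives the adjusted p of these 3 ran from 0.016 to 0.8, from 0.029 to 0.99 and from 0.19 to 0.91. No direction is given for them.

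TBX3 encodes a T-box repressor that mouse naive cells express and that many tissues of the later embryo use. Primed libraries had 0, 0, 1, 0, 10 and 0 counts, so that 5 of 6 were at or under 3 counts and K2 alone reached 0.659 CPM. TL2i had 552, 561 and 373 counts, or 28.3, 34.3 and 27.9 CPM. No library of another group passed 9.64 CPM, and TL2i overlapped with none. The 4i/L/b libraries had 9.20, 5.85 and 6.88 CPM, those of TL-CDK8i 5.49, 9.64 and 5.98 CPM, and those of t2iLGöY 5.14, 3.47 and 3.59 CPM. 4i/L/b and TL-CDK8i overlapped with each other, and t2iLGöY lay under both and above Primed. Counts were 7, 4 and 2 in NHSM-v, 7, 1 and 8 in LCDM (EPS) and 0, 7 and 0 in E-NHSM. These 3 groups overlapped with Primed and with each other, and they did not pass the filter.

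All 4 protocols tested were called higher for TBX3, with 3 of 3 libraries above every primed library in each: TL2i (log2 fold change 7.35 ± 0.68, adjusted p 9.2e-07), 4i/L/b (5.44 ± 1.06, 0.00065), TL-CDK8i (5.44 ± 1.07, 0.00079) and t2iLGöY (4.59 ± 1.30, 0.0078). Their size rests on the 10 counts of Primed K2. Without K2 the other 5 primed libraries held 1 count in all, and the ratio to them, with its 95% counting interval, was 1501 (269 to 59308) in TL2i, 368 (65.4 to 14616) in 4i/L/b, 349 (61.9 to 13846) in TL-CDK8i and 202 (35.8 to 8034) in t2iLGöY. The calls held without K2 and in every other alternative in which TBX3 passed the filter. The part of other cell types in the TBX3 level was not tested.

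SUSD2 encodes a membrane protein with a sushi domain and is the surface marker among the members. Primed libraries ran from 0 CPM in J1 to 3.36 CPM in K1, with a median of 1.51 CPM. The t2iLGöY libraries had 13.7, 6.43 and 12.9 CPM and those of LCDM (EPS) 10.5, 8.58 and 9.83 CPM. These were the highest groups, they overlapped with each other, and the lowest t2iLGöY library also overlapped with NHSM-v and TL-CDK8i. NHSM-v had 8, 4.95 and 5.25 CPM, TL-CDK8i 7.61, 6.42 and 3.72 CPM, and TL2i 3.85, 5.75 and 4.42 CPM. All libraries of these 3 lay above Primed K1. In 4i/L/b the values were 1.52, 4.90 and 2.54 CPM and in E-NHSM 3.76, 2.39 and 1.26 CPM, both overlapping with Primed.

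The calls for SUSD2 were t2iLGöY (log2 fold change 2.71 ± 0.75, adjusted p 0.007), LCDM (EPS) (2.52 ± 0.72, 0.0083) and NHSM-v (2.00 ± 0.82, 0.048), all higher, with 3 of 3 libraries above every primed library in each. The NHSM-v call was lost without Primed J2 (adjusted p 0.067), K2 (0.063) or K3 (0.058) and without each NHSM-v replicate (0.17, 0.084 and 0.093), in a range from 0.0017 to 0.17. TL-CDK8i (1.92 ± 0.81, adjusted p 0.065) and TL2i (1.48 ± 0.83, 0.15) were not called, although 3 of 3 libraries of each lay above every primed library. TL-CDK8i was called under DESeq2 (0.025) and with all 8 groups in 1 fit (0.0031), as TL2i was in that fit (0.02). TL-CDK8i was also called without Primed J1 (1.68, 0.032) or K1 (2.34, 0.032) and with J or K alone (0.032 and 0.04), in a range from 0.0031 to 0.21. No call was made in 4i/L/b (0.89 ± 0.92, 0.43, 1 of 3 libraries above every primed library) or in E-NHSM (0.61 ± 1.00, 0.71, 1 of 3). The mean SUSD2 level was highest in t2iLGöY and LCDM (EPS), the protocols with the highest sums of neural markers, and the part of neural cells in it was not tested.

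TL-CDK8i and TL2i both use tamoxifen-activated STAT3 and differ in their inhibitors, and they were compared directly. The groups also differ widely in POU5F1 and in the marker lists, and the part of this in the values below was not tested. Here 1 of 7 members was higher in TL-CDK8i and 3 of 7 were lower, where 31.5% of all tested genes were higher and 33.3% lower. KLF5 was higher (log2 fold change 3.29 ± 0.15, adjusted p 7.1e-10, 3 of 3 libraries above every TL2i library). Lower were TBX3 (-1.98 ± 0.20, 1.6e-06), DPPA3 (-3.18 ± 0.62, 0.0005) and TFAP2C (-0.38 ± 0.11, 0.0092), each with 3 of 3 libraries below every TL2i library. DPPA3 rests on 7 counts in the 3 TL-CDK8i libraries against 117 in TL2i, and without TL-CDK8i replicate 1 it was -3.85. With all 8 groups in 1 fit it was not called (adjusted p 0.099), in a range from 0.00014 to 0.099. The TFAP2C call was lost without TL2i replicate 1 or without TL-CDK8i replicate 3 (adjusted p 0.055 for both), with all 8 groups in 1 fit (0.41) and where an absolute log2 fold change of at least 1 was asked, in a range from 0.0042 to 0.41. KLF4 (0.32 ± 0.47, adjusted p 0.57, 1 of 3 libraries above every TL2i library), TFCP2L1 (0.64 ± 0.74, 0.46, 2 of 3) and SUSD2 (0.45 ± 0.30, 0.21, 2 of 3) were not called.

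A further test asked whether a gene differed among the 7 protocols, with the primed libraries left out. All 7 members were called, in a table in which 90.9% of all tested genes were, so that the calls say little about the members. The adjusted p ran from 3.1e-20 for KLF5, 1.8e-13 for TFAP2C and 2.7e-12 for TBX3 to 0.0051 for TFCP2L1, with 2.7e-06 for KLF4, 7.5e-06 for DPPA3 and 0.00053 for SUSD2. Ranges of group means over the protocols were 2.72 to 198 CPM for KLF5, 9.10 to 70.1 CPM for TFAP2C and 0.133 to 30.2 CPM for TBX3. They were 0.605 to 10.3 CPM for KLF4, 2.47 to 11 CPM for SUSD2, 0.259 to 5.46 CPM for TFCP2L1 and 0 to 4.63 CPM for DPPA3. Other differences between pairs of protocols were not tested.

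The KLF family outside the members has 13 genes in the tables, all zinc-finger factors that bind GC-rich or CACCC-type sites. Over the 7 comparisons with Primed, 83 tests gave 18 higher, 30 lower and 35 not called, and the median log2 fold change ran from -0.50 to 0.14, beside -0.02 to 0.07 for all tested genes. Of all tested genes 11.1% to 28.2% were higher and 15.1% to 30.6% lower, depending on the protocol, and these shares stand beside the counts of every list below. The KLF family had a share of higher calls inside that range and a share of lower calls not far above it, so its counts say little about the family. KLF6 was higher in 5 protocols and lower in LCDM (EPS), with means of 79.9 ± 9.72 CPM (SD, n = 6) in Primed, 344 ± 4.55 CPM in 4i/L/b and 50.2 ± 2.43 CPM in LCDM (EPS) (n = 3 each). KLF12 was highest where KLF5 was lowest, with 168 ± 19.1 CPM in LCDM (EPS) and 114 ± 8.94 CPM in t2iLGöY against 25.5 ± 6.83 CPM in Primed. KLF16 was lower in all 7 protocols, the call in E-NHSM being lost under upper-quartile normalization. KLF10 was lower in 6 protocols and higher in 4i/L/b (351 ± 43.8 CPM against 198 ± 87.9 CPM in Primed), a call that was lost under DESeq2. The primed sets differed for KLF10: it had 259, 276 and 297 CPM in K1, K2 and K3. In each J library it lay under KLF7, which had 156 to 187 CPM there. The KLF10 calls are given with all 6 primed libraries only. KLF17, a marker of human naive cells placed with the other naive-state genes, had counts above the floor in E-NHSM alone, at 0.128 ± 0.222 CPM (n = 3). All of these counts came from E-NHSM replicate 3.

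Relatives of TFAP2C, TBX3 and TFCP2L1 (21 AP-2, T-box and grainyhead-CP2 genes in the tables) gave 95 tests, with 21 higher, 23 lower and 51 not called and medians from -0.37 to 0.68. Both shares lay inside the range for all tested genes, so that these counts too say little. TFAP2A and TFAP2B, AP-2 genes of neural crest and surface ectoderm, reached 144 ± 28.5 and 340 ± 10.1 CPM in t2iLGöY and 190 ± 9.27 and 279 ± 1.06 CPM in LCDM (EPS). In Primed they had 3.27 ± 1.99 and 0.986 ± 1.43 CPM (n = 6). TFAP2C was not called in t2iLGöY and was called lower in LCDM (EPS). TFAP2A, TFAP2B and TFAP2C were all called higher in TL2i (TFAP2A 86.3 ± 6.84 CPM, TFAP2B 80.8 ± 8.28 CPM) and in NHSM-v (19.3 ± 2.95 and 31.4 ± 1.98 CPM). TBX2, the nearest relative of TBX3, was too low to quantify in Primed and had 17.3 ± 2.96 CPM in t2iLGöY and 1.31 ± 0.295 CPM in TL2i. TBX5 had 13.6 ± 0.915 CPM in TL-CDK8i and was too low to quantify in every other group. EOMES was called higher in TL-CDK8i alone (52.7 ± 20.1 CPM against 9.15 ± 3.45 CPM in Primed) and lower in 5 protocols. The CP2 genes TFCP2 and UBP1 had group means of 74.0 to 128 CPM and 174 to 259 CPM. UBP1 was called lower in 5 protocols, with E-NHSM and TL-CDK8i not called, and TFCP2 was called higher in LCDM (EPS) alone, a call that was lost under upper-quartile normalization.

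**Figure D4:**
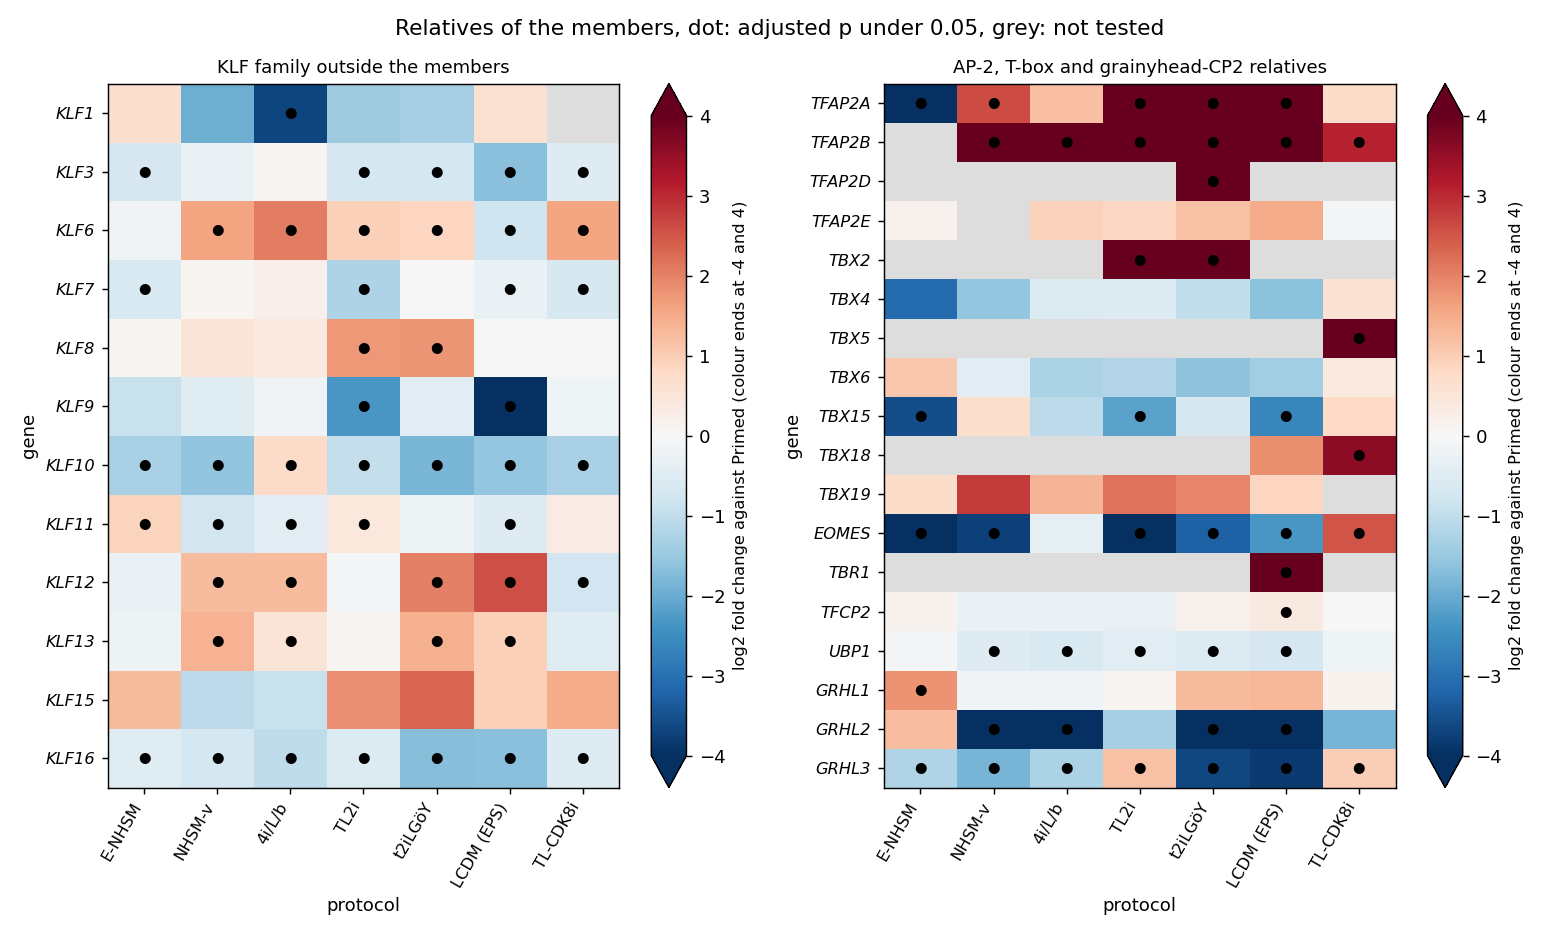
Log2 fold change against Primed of the KLF family and of the AP-2, T-box and grainyhead-CP2 relatives in each protocol, with colour ending at -4 and 4, a dot for an adjusted p under 0.05 and grey for not tested. TFAP2A and TFAP2B are higher in t2iLGöY and LCDM (EPS); where a gene is at or under 3 counts in every library of a group, as TBX2, TBX5, TFAP2D and TBR1 are in Primed, colour shows direction only.

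Other naive-state genes (22 of 24 in the tables) had 76 tests, which gave 12 higher, 48 lower and 16 not called, and the medians ran from -6.91 to 0.28, or from -4.69 to 0.28 with genes at or under the floor set to their bound. The summed level of this list was highest in Primed (1594 to 1798 CPM) and E-NHSM (1586 to 1612 CPM), so many of its genes are not particular to the naive state in these data. A lower call here is therefore not read as loss of a naive-specific gene. DPPA4, a chromatin factor of early embryos, had 441 ± 20 CPM in Primed, 421 ± 7.59 CPM in E-NHSM and 245 ± 40.0 CPM in TL-CDK8i, and at most 7.66 ± 0.408 CPM in the other protocols. DPPA2, its partner, was higher in TL-CDK8i (51.1 ± 12.5 CPM against 11.8 ± 3.26 CPM in Primed). ZFP42 and PRDM14 were lower in 6 and 7 of the 7 protocols, and the LIF co-receptor IL6ST was higher in 6, at 146 ± 16.2 to 359 ± 16.3 CPM against 59.0 ± 19.8 CPM. ESRRB reached 6.60 ± 1.33 CPM in LCDM (EPS), against 0.431 ± 0.351 CPM in Primed. DPPA5 had at most 0.525 ± 0.542 CPM in any group. Each of DPPA2, DPPA4, ZFP42, GDF3, TFE3, PRDM14, SALL4 and FGFR1 was called lower in all 5 protocols with little POU5F1.

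The read-outs of the pathways that the protocols target gave 115 tests over 17 genes, with 51 higher, 48 lower and 16 not called and medians from -1.05 to 1.89. AXIN2, a target of Wnt signalling that GSK3 inhibition raises, was higher in all 7 protocols, from 23.3 ± 3.56 CPM in E-NHSM to 405 ± 15.7 CPM in TL2i against 6.81 ± 1.98 CPM in Primed. These include TL-CDK8i, in which the GSK3β inhibitor is replaced (log2 fold change 3.04), and the cause of the AXIN2 levels was not tested. LEF1 and NKD1 were called higher in every protocol but E-NHSM, where LEF1 was too low to quantify and NKD1 was not called. TNFRSF19 was called lower in E-NHSM and LCDM (EPS) and higher in the rest. SPRY4 and DUSP6, feedback genes of the MEK-ERK pathway, were lower in all 7. DUSP6 fell from 548 ± 68.5 CPM in Primed to 16.7 ± 3.33 CPM in t2iLGöY and 16.9 ± 0.823 CPM in LCDM (EPS), and TL-CDK8i had 375 ± 52.3 CPM. STAT3 counts, which may include those of the STAT3-ERT2 transgene, were 819 ± 11.4 CPM in TL2i, 545 ± 20.1 CPM in NHSM-v and 186 ± 57.8 CPM in TL-CDK8i against 145 ± 44.9 CPM in Primed. SOCS3, a direct target of STAT3, was called lower in TL2i, 4i/L/b, LCDM (EPS) and, though not under upper-quartile normalization, E-NHSM. It was not called in the other 3, and had 22.5 ± 0.789 CPM in TL2i and 29.4 ± 5.19 CPM in TL-CDK8i against 37.4 ± 12.1 CPM in Primed. Other genes of this list moved differently from SOCS3 and from each other. BCL3 was called higher in every protocol except TL-CDK8i, where it was not tested, and the LCDM (EPS) call was lost under DESeq2. PIM1 was called lower in every protocol except 4i/L/b and TL-CDK8i, where it was not called.

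Immediate-early genes, which respond to handling and to growth factors, gave 98 tests over 14 genes, with 13 higher, 69 lower and 16 not called and medians from -3.77 to 0.07. EGR1 had 1409 ± 271 CPM in Primed, 428 ± 31.9 CPM in 4i/L/b and 2.94 ± 0.518 CPM in t2iLGöY. Germ cell markers, a list of 9 genes that holds TFAP2C and DPPA3, gave 39 tests with 14 higher, 6 lower and 19 not called and medians from -0.11 to 1.72. KIT was higher in 5 protocols, while NANOS3 was called in t2iLGöY and, though not under DESeq2, in LCDM (EPS), and DDX4 and DAZL in none. The counts of the marker lists were 4 higher and 58 lower of 70 tests for pluripotent cells (medians -6.96 to 0.14, or -6.14 to 0.14 at the bound), 66 higher and 7 lower of 88 for neural and neural crest cells (-0.63 to 7.36, or to 6.90), and 35 higher and 16 lower of 66 for fibroblasts and mesenchyme (-2.0 to 2.81). They were 9 higher and 11 lower of 33 for trophoblast and amnion (-5.23 to 3.91, or -3.13 to 3.82) and 7 higher and 17 lower of 51 for mesoderm and endoderm (-3.72 to 1.78, or -3.36 to 1.78).

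The genes most like each member were found by Pearson correlation of log2 CPM over the 27 libraries among 14751 genes. The points share their groups and their depth, so that likeness mostly means the same order of groups, and no p is given. For KLF4 they were HABP4 (0.79), FAXDC2 (0.78) and HSPA2 (0.77), and for KLF5 TIMP3 (0.95), EDA2R (0.93) and CA3 (0.93). TIMP3, EDA2R and CA3 all had their highest mean in TL-CDK8i, at 111, 103 and 82.4 CPM. VWA8 (0.82), PDHA1 (0.79) and RDH8 (0.77) were the most like TFCP2L1, and TMEM116 (0.80), EPHX2 (0.80) and QARS (0.79) the most like DPPA3. Likeness to genes with this few counts is weakly fixed. TFAP2C was matched by WBP1L (0.87), B4GALT1 (0.86) and ZCCHC24 (0.86), all highest in NHSM-v, and TBX3 by NPNT (0.91), LOXL3 (0.90) and NOG (0.88), all highest in TL2i at 98.5, 99.4 and 21.3 CPM. SUSD2 was matched by ZFPM1 (0.86) and HCN4 (0.86), highest in LCDM (EPS), and by KLHL29 (0.85), highest in t2iLGöY.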

How the data were processed

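The authors prepared directional mRNA libraries, read as single reads of 75 bases, and deposited raw counts per gene symbol, 3 columns per protocol and 6 for Primed; bcl2fastq, cutadapt, HISAT2 and HTSeq are named with no versions, and the genome build is not given in the sources used here. Members and lists were chosen with earlier results of these data known. The text names the 8 members, genes of the 11 fixed lists where they describe a list or a member, and the 3 genes most like each member. Of 158 symbols, 152 are in the tables; KLF2, ALPPL2, ALPG, TBXT, NR4A1 and KRT18 are not listed under those symbols (an entry T, an older symbol of TBXT, was not used, so list counts and sums leave it out). CPM is the count over the library total. Tests used R 4.3.3 and edgeR 4.0.16 (limma 3.58.1): TMM, filterByExpr, quasi-likelihood F test on the 2 groups compared, Benjamini-Hochberg over all genes tested, threshold 0.05. The standard error given with a log2 fold change was derived from the test, as the absolute log2 fold change over the square root of F. At few counts it is approximate. For likeness, 2 was the prior count in log2 CPM. Alternatives were upper-quartile normalization, DESeq2 1.42.0, no filter, at least 10 counts in every library, an absolute log2 fold change of at least 1, all 8 groups in 1 fit, each library left out, J or K alone, and, between protocols, the replicate number as a block. Against Primed no block could be used, because the primed columns carry letters found in no label. The fits were also run on simulated data, and the outcome is not given here.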

Additional observations from a re-analysis of the deposited data

Results flagged for a closer look

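In 3 cases 1 primed library lay far from the other 5: KLF4 in J3 at 2.39 CPM, DPPA3 in K2 at 2.63 CPM and TBX3 in K2 at 0.659 CPM. For normally spread values, chance picks out about 1 in 20 such groups of libraries. All 3 values are from genes at few counts, for which this rate was not measured. The direct comparison of TL-CDK8i with TL2i called 4 members, with log2 fold changes of 3.29 for KLF5, -3.18 for DPPA3, -0.38 for TFAP2C and -1.98 for TBX3. The calls of DPPA3 and TFAP2C were lost with all 8 groups in 1 fit. These groups differ in their marker levels as well as in their inhibitors, and the cause was not tested.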

How the results depend on the processing

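Values of members in single comparisons kept their direction and side of the threshold in 600 cases, moved past the threshold in 30, fell short of it in 32 and changed sign in 9. None of the sign changes belongs to a called value. They were KLF5 (0.33) and TFAP2C (0.15) in E-NHSM with J alone; TFAP2C in 4i/L/b without J3 (-0.00547) and with K alone (-0.30); TFAP2C in t2iLGöY without K1 (0.24), without replicate 2 (0.12) and with J alone (0.57); and, in TL-CDK8i against TL2i, TFCP2L1 without TL-CDK8i replicate 1 (-0.0333) and KLF4 without TL-CDK8i replicate 2 (-0.26). Leaving out 1 library gave up to 0.53 for TFAP2C in 4i/L/b, down to -0.28 for TFAP2C in t2iLGöY and, between TL-CDK8i and TL2i, up to 0.63 for KLF4 and 1.21 for TFCP2L1. The cause was not tested.

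The number of members called moved by over 1.5 times as follows. With at least 10 counts in every library, which leaves fewer members to test, it went from 2 to 0 in E-NHSM, from 2 to 1 in 4i/L/b, from 2 to 0 in t2iLGöY and from 7 to 3 among the 7 protocols. With all 8 groups in 1 fit it went from 2 to 1 in E-NHSM, from 2 to 4 in TL2i, from 2 to 5 in t2iLGöY and from 4 to 2 in TL-CDK8i against TL2i. The 5 in t2iLGöY include TFCP2L1 or DPPA3, which had few or no counts there, and no level is read from that call. With J alone the number of members called went from 3 to 1 in LCDM (EPS), and with K alone from 2 to 4 in E-NHSM and in t2iLGöY. Leaving out 1 library gave 1 to 3 in E-NHSM and LCDM (EPS), 2 to 4 in NHSM-v, t2iLGöY and TL-CDK8i, 2 to 3 in 4i/L/b and TL2i, 3 to 4 in TL-CDK8i against TL2i and 7 among the 7 protocols. With the replicate number as a replicate block, 4 members were called in TL-CDK8i against TL2i and 7 among the 7 protocols.

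Over all genes, an absolute log2 fold change of at least 1 cut the calls by over 1.5 times in each comparison (from 3486 to 1209 in E-NHSM, from 8906 to 3848 in TL-CDK8i against TL2i), and 1 fit of all groups raised those of E-NHSM to 5255. Upper-quartile normalization and DESeq2 moved the median of all genes by -0.05 to 0.08, and no call in a list changed sign under them. Upper-quartile normalization turned the balance of calls in E-NHSM, to 1879 genes higher and 1713 lower from 1476 and 2010. With DESeq2 3 more members were called and none was lost. TFCP2L1, DPPA3 and, in Primed, TBX3 had few counts, and changes among their low groups were not detectable.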
